A study of Mus musculus with 14 samples.

Results

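T cells and natural killer (NK) cells were followed through 43 genes that are known to be expressed in these lymphocytes, some of them also in other cells, listed by name. The list was drawn up with earlier results of these arrays known. The genes were grouped by role into 8 groups: the T cell receptor complex with its coreceptors, signalling proteins downstream of it, adhesion and costimulatory receptors, cytotoxic granule proteins, NK cell receptors, cytokine receptors, transcription factors, and chemokines with other cytokines and homing receptors. Of the 43 genes, 37 were measured, each by its brightest probe, out of 13923 distinct genes with a probe and 19621 probes in all. Lck, Cd5, Cd27, Gzma, Il2rg and Tcf7 had no probe that names them and were not analysed here. Cd247 was covered by 3 probes and Eomes by 2.

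Lung RNA came from 14 C57/BL6 mice, 1 single-colour array per animal. In each genotype, wild-type and jnk1-/-, 3 mice were controls and 4 were ventilated. The jnk1-/- mice lack c-Jun-NH2-terminal kinase-1, a stress-activated kinase, in all cells, and were matched to the wild-type mice for age and sex according to the methods. Ventilated mice were anesthetized with ketamine and acepromazine, received pancuronium as a muscle relaxant and were ventilated with room air at a tidal volume of 10 ml/kg for 8 hours, whereas controls were killed directly after anesthesia. Ventilation therefore cannot be told apart from 8 hours of anesthesia and muscle relaxation.

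T cells recognize peptides through the T cell receptor, which signals through the CD3 chains, the kinases Lck and Zap70 and the adaptor Lat. NK cells carry no such receptor and instead weigh signals of activating receptors such as Nkg2d (encoded by Klrk1) and Nkp46 (Ncr1) against those of inhibitory ones. NK cells and cytotoxic T cells kill targets with perforin and granzymes, share the interleukin 2 and 15 receptor chain Il2rb and depend on the T-box factors Tbx21 and Eomes. The lung holds both cell types in the tissue and in its large vascular bed, so that its RNA includes lymphocytes of the blood.

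In wild-type lungs, the level of granzyme B (Gzmb), a serine protease of cytotoxic granules, rose with ventilation and that of the activating NK cell receptor gene Klrk1 fell, 1 of 37 genes in each direction, against 2.16% of all probes higher and 1.45% lower. In jnk1-/- lungs, 7 of the 37 genes fell with ventilation and 0 rose, against 5.51% of all probes lower and 6.3% higher. The 7 were the receptor kinase Zap70, the adhesion receptors Cd2 and Cd7, the NK cell receptor genes Klrd1, Klrk1 and Ncr1, and the chemokine gene Ccl5. None of the 37 genes differed between the genotypes beyond the threshold, neither in controls nor after ventilation, and in none was the ventilation effect shown to differ between the genotypes. A gene was called where its p-value from limma, adjusted by Benjamini-Hochberg across the whole array of 19621 probes, was under 0.05. In whole-lung RNA, fewer cells of a type and less RNA per cell cannot be told apart.

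Promoter sequences are shown for the called genes that have a window in the RefSeq promoter table used here (build GRCm38.p6), because the Runx motif printed in 3 of them is the motif of a transcription factor family active in T and NK cells. Each window holds 250 bases before and 50 bases after an annotated transcript start and is written from 5′ to 3′ on the gene's strand, with the matched motif in capitals. The windows are Klrk1 at chr6:129623815-129624114 (minus strand), Ncr1 at chr7:4337465-4337764 (plus strand) and Gzmb at chr14:56262285-56262584 (minus strand), each with the Runx letters TGTGGTT. Of the 3 windows of Zap70, the one at chr1:36761548-36761847 (plus strand) is shown, with 2 copies of the E-box letters CAGGTG. The other windows of Zap70 hold the T-box core letters GGTGTG, 2 copies in one and, in the other, 1 copy with an E-box.
Klrk1: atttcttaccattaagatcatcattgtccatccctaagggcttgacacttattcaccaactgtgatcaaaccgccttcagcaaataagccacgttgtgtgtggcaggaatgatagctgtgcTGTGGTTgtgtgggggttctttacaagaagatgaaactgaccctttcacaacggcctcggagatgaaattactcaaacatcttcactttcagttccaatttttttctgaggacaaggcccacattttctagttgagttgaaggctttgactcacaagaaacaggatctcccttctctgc
Ncr1: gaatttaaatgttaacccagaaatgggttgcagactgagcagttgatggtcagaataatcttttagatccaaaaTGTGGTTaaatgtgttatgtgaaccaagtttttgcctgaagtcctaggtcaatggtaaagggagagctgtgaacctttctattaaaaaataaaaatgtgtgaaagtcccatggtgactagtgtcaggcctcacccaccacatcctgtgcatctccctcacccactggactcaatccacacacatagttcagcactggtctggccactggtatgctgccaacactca
Gzmb: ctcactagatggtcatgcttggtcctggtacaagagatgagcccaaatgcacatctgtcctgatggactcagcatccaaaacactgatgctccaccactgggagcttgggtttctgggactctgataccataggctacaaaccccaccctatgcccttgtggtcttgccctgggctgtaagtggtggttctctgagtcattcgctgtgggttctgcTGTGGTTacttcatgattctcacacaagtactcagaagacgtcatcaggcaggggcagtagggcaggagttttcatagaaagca
Zap70: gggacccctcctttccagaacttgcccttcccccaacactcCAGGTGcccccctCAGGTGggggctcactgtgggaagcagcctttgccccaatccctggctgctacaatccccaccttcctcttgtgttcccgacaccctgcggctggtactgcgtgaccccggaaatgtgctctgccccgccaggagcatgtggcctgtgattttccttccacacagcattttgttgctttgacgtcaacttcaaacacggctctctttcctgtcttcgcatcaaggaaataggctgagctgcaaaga

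A window was found for 29 of the 43 genes, with 38 windows between them. Exact matches were searched on both strands. The Runx letters TGTGGTT or TGCGGTT occurred in 10 of the 38 windows (26.3%), from 9 genes, against 6.75% of all 32851 windows of the same length. The E-box letters CAGGTG or CAGCTG were found in 19 of the 38 windows (50%) and in 33.0% of all windows. The T-box core GGTGTG occurred in 28.9% and 19.1%, the longer T-box letters AGGTGTGA, which contain that core, in 2.63% and 1.28%, the Ets letters CCGGAAGT or GAGGAAGT in 5.26% and 6.93%, and the Tcf/Lef letters CTTTGAT in 5.26% and 3.73%. These matches describe letters only. Some windows of a gene overlap, as the pair of Ncr1 does and the windows of Zap70 do not, so windows are not all independent of each other. Cd2, Cd7, Klrd1 and Ccl5 are named without a sequence.

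The arrays were even after normalization, with 3 exceptions. Wild-type control replicates 2 and 3 held 10.7% and 6.98% of their probes at the lowest deposited value, against 1.86% to 4.52% on the other arrays. Over the 12159 bright probes, the same pair, and jnk1-/- control replicates 1 and 2, resembled each other more closely than the other pairs of their groups, with SDs of the log2 differences of 0.38 and 0.33 against 0.48 to 0.68. Over all probes this held for the jnk1-/- pair (SD 0.92 against 1.03 and 1.09) and not for the wild-type pair (1.40 against 1.25 and 1.43). All 3 jnk1-/- control arrays carried genes of skeletal muscle and stratified squamous epithelium: the median log2 intensity of 16 muscle markers was 7.75 to 8.38 there and 4.80 to 5.68 in wild-type controls, and that of 19 squamous markers was 7.89 to 8.96 against 2.93 to 4.00. Of these markers, 11 of 16 and 13 of 19 were higher in jnk1-/- controls, among them the muscle genes Mylpf, Tnni2 and Acta1 and the squamous keratin genes Krt13 and Krt4. The part of these tissues in the results that rest on jnk1-/- controls was not tested. Markers of thymus, a source of T cell RNA outside the lung, had medians of 3.89 to 4.33 in jnk1-/- controls and 2.93 to 4.72 in wild-type controls. Their summed signal was higher in jnk1-/- controls, with log2 sums of 10.0 to 10.4 against 9.69 to 9.73. The median difference of the 11 thymus markers was 0.58. Of them, 1 was called higher, Arpp21 (log2 0.70, adjusted p = 0.0322, limma), against 2.08% of all probes. The part of thymus in these results was not tested either. Mapk8 encodes Jnk1, and its probe was 1.45 lower in jnk1-/- controls (log2, adjusted p = 0.376 in limma), and the authors' table lists it at its floor on 3 of 3 jnk1-/- and 1 of 3 wild-type control arrays, so it is too dim to check the genotype.

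The label of the genes was checked against the levels of the CD3 chains. Cd3d was above the authors' floor on all 14 arrays and Cd3g on 12 of 14. Cd3e stood at that floor on 13 of 14 arrays, Ctla4 on all 14, Gzmk and Ccr7 on 11, Cd96 on 10, Cd8a on 8, Ncr1 on 7 and Txk on 6. The authors' floor is the lowest value of their own table, log2 3.12, and holds 24.5% of its values. Differences of genes at this floor rest on dim signals.

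**Figure D1:**
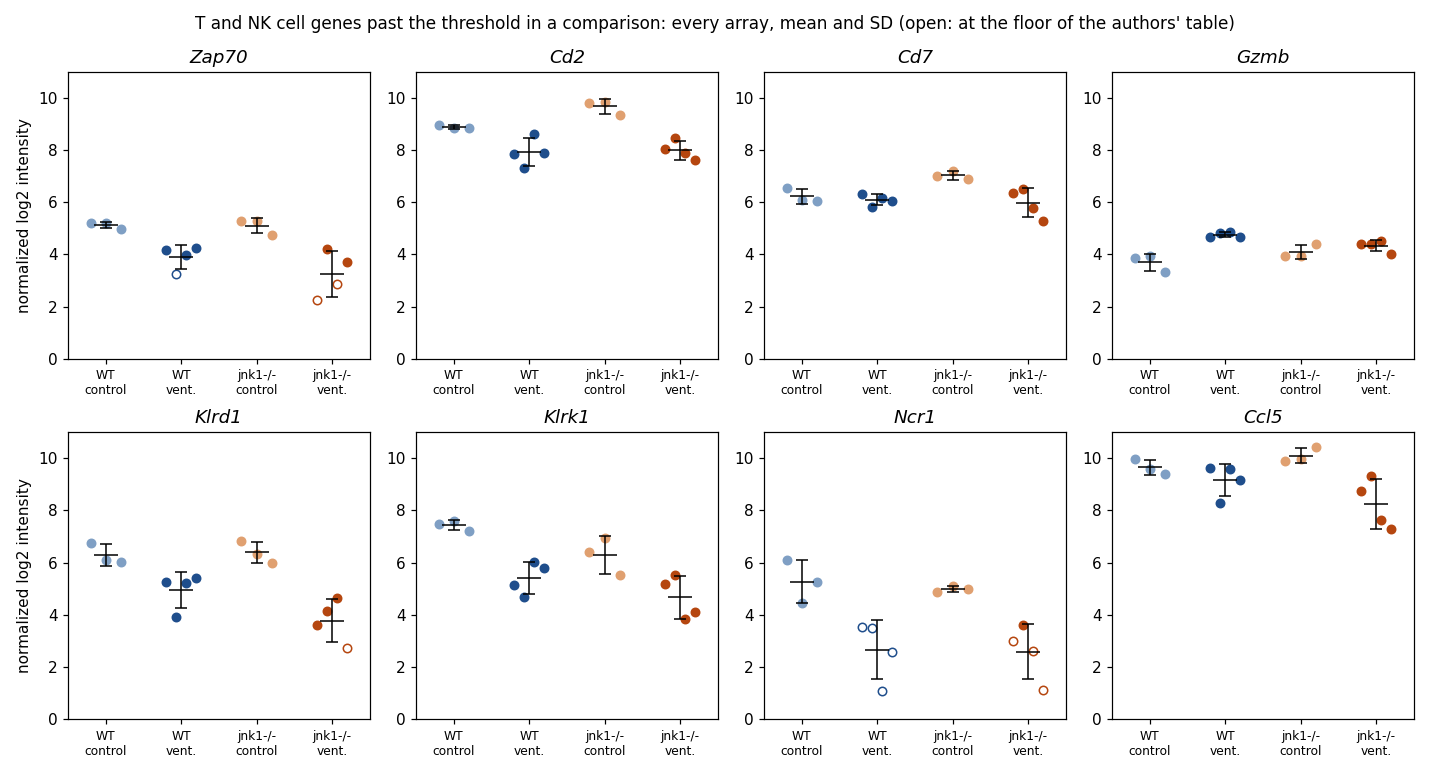
Normalized log2 intensity (y axis) of the 8 T and NK cell genes past the threshold in at least 1 comparison, by group (x axis), with 1 point per array, open where the authors' table lists the array at its floor, and the group mean with SD as bars. Klrd1, Zap70 and Ncr1 lie lower on every ventilated jnk1-/- array than on every jnk1-/- control array, whereas Gzmb lies higher on every ventilated wild-type array than on every wild-type control array.

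At an unadjusted p under 0.05 in place of the adjusted one, the wild-type ventilation comparison had 4 of 37 T and NK cell genes higher and 9 lower. The share of all probes at this unadjusted threshold was not counted in any comparison, so such counts have no background beside them. The sign of the difference was negative for 24 of the 37 genes, and for 43.5% of all probes. The median log2 difference of the genes was -0.48, beside 0.08 over all probes. In jnk1-/- lungs, the counts at an unadjusted p under 0.05 were 19 lower and 0 higher. Here 32 of the 37 genes had a negative sign, as did 54.3% of all probes, and the medians were -0.74 for the genes and -0.07 over all probes.

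The count of genes whose arrays did not overlap gives a second view of the same values. On ventilation, 11 of 37 genes were lower on every ventilated wild-type array than on every wild-type control array, against 10.5% of all probes, and 3 (Gzmb, Il2rb and Lef1) were higher on every one, against 11.2%. In jnk1-/- lungs, 11 were lower on every ventilated array, against 12% of all probes, and 0 were higher on every one, against 11.6%. Cd2, Zap70, Nkg7, Klrd1, Ncr1 and Ltb were lower without overlap in both genotypes. Cd4, Cd8b1, Klrk1, Klrb1c and Tbx21 were so in wild-type lungs and Cd3g, Cd6, Cd7, Cd96 and Ccl5 in jnk1-/- lungs, which does not show that their effects differed.

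**Figure D2:**
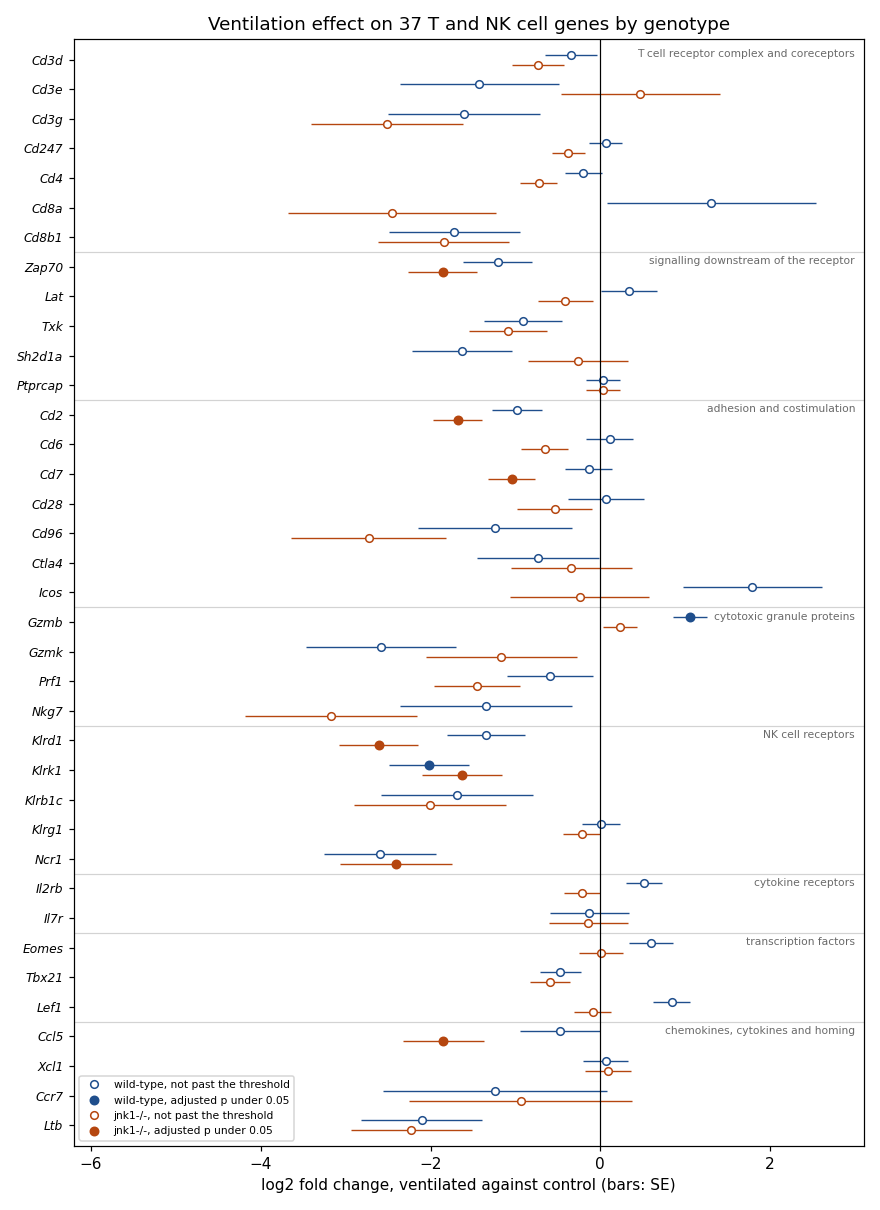
Log2 fold change of ventilated against control lungs (x axis, with SE as bars) for each of the 37 genes (y axis, by role) in wild-type and jnk1-/- mice, filled where the adjusted p was under 0.05. Most points lie left of zero, 24 of 37 in wild-type and 32 of 37 in jnk1-/- lungs, with 2 and 7 filled points.

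No member of the T cell receptor complex passed the threshold in any comparison. The median difference of its 7 genes on ventilation was -0.34 in wild-type and -0.74 in jnk1-/- lungs. Cd3d, a chain that carries the signal of the receptor into the cell, had a log2 level of 7.49 ± 0.30 in wild-type controls (SD, n = 3), 7.15 ± 0.21 in ventilated wild-type mice (n = 4), 8.19 ± 0.15 in jnk1-/- controls (n = 3) and 7.46 ± 0.66 in ventilated jnk1-/- mice (n = 4). Cd247, the zeta chain of the receptor, was level across the groups, between 7.29 and 7.67, with a log2 difference on ventilation of 0.06 in wild-type and -0.38 in jnk1-/- lungs. Its probes gave -0.67 to -0.37 in jnk1-/- lungs, none of them past the threshold.

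Cd4, the coreceptor of helper T cells, had a mean log2 level of 6.49 ± 0.02 and 6.28 ± 0.12 in control and ventilated wild-type lungs (SD, n = 3 and 4) and of 6.91 ± 0.29 and 6.19 ± 0.39 in jnk1-/- lungs (n = 3 and 4). The difference in jnk1-/- lungs, -0.72 with an SE of 0.22, lay just outside the threshold (adjusted p = 0.0508, limma). In the authors' own normalized table, Cd4 was called lower in jnk1-/- lungs (log2 -0.73, adjusted p = 0.0275, limma). Cd8b1, a coreceptor chain of cytotoxic T cells, differed by -1.72 in wild-type and -1.84 in jnk1-/- lungs on the log2 scale, with SEs of 0.77, and neither passed. Cd3g, named here after its values were seen, differed by -2.51 in jnk1-/- lungs with an SE of 0.89 (adjusted p = 0.0898, limma).

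Zap70, the kinase that binds the phosphorylated receptor chains and passes the signal on, had log2 levels of 5.20, 5.19 and 4.99 in wild-type controls and of 4.17, 3.25, 3.99 and 4.26 in ventilated wild-type mice. In jnk1-/- mice it stood at 5.28, 5.29 and 4.76 in controls and at 2.25, 4.19, 2.86 and 3.70 after ventilation. Every ventilated array lay below every control array in both genotypes, and the authors' table lists 1 of 4 ventilated wild-type and 2 of 4 ventilated jnk1-/- arrays at its floor. Zap70 fell 3.63-fold in jnk1-/- lungs (log2 -1.86, SE 0.41, 95% interval -2.74 to -0.97, adjusted p = 0.0134, limma). The difference in wild-type lungs was -1.21 with an SE of 0.41 and an adjusted p of 0.122 in limma. In the authors' own normalized table, Zap70 was called lower in both genotypes. The log2 differences there were -1.50 in wild-type and -1.39 in jnk1-/- lungs (adjusted p = 0.00482 and 0.00304, limma). The call in jnk1-/- lungs was lost by a small margin without control replicate 1 or 2, with log2 -1.77 each and adjusted p-values of 0.0527 and 0.0508 in limma.

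Of the other signalling genes, Lat, the adaptor phosphorylated by Zap70, had means of 5.48 and 5.82 in control and ventilated wild-type lungs and of 6.47 and 6.06 in jnk1-/- lungs. Ptprcap, a protein bound to the phosphatase CD45 of all lymphocytes, lay between 7.10 and 7.24 in the 4 groups, with a log2 difference on ventilation of 0.03 in each genotype and an SE of 0.20. Sh2d1a, an adaptor of costimulatory receptors, differed by -1.63 in wild-type and by -0.26 in jnk1-/- lungs. None of these passed the threshold.

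Among 7 measured adhesion and costimulatory receptors, Cd2 and Cd7 fell in jnk1-/- lungs. Cd2, an adhesion receptor of lymphocytes that is not confined to T and NK cells in mice, had log2 levels of 8.97, 8.86 and 8.84 in wild-type controls and of 7.86, 7.30, 8.60 and 7.89 in ventilated wild-type mice. Its levels were 9.83, 9.86 and 9.34 in jnk1-/- controls and 8.04, 8.47, 7.88 and 7.60 in ventilated jnk1-/- mice. The groups did not overlap in either genotype, and all arrays were above the authors' floor. Cd2 fell 3.21-fold in jnk1-/- lungs (log2 -1.68, SE 0.29, 95% interval -2.31 to -1.05, adjusted p = 0.00444, limma). In wild-type lungs the difference was -0.98 with an SE of 0.29 (adjusted p = 0.0835, limma). The call in jnk1-/- lungs held without each array in turn.

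Cd7, a surface protein of T and NK cells, stood at 6.99, 7.21 and 6.88 in jnk1-/- controls and at 6.36, 6.50, 5.77 and 5.30 after ventilation. In wild-type mice it stood at 6.56, 6.08 and 6.05 in controls and at 6.33, 5.83, 6.18 and 6.03 after ventilation. The jnk1-/- groups were apart and the wild-type groups overlapped. Cd7 fell 2.06-fold in jnk1-/- lungs (log2 -1.04, SE 0.28, adjusted p = 0.0315, limma), and the difference in wild-type lungs was -0.14 (SE 0.28). The fall in jnk1-/- lungs starts from control levels that lay above all wild-type controls. The difference between these effects was -0.91 (SE 0.39, adjusted p = 0.351, limma), which did not pass. Without any 1 of the jnk1-/- controls or without ventilated replicate 3 or 4, the fall was 0.82 to 1.12 on the log2 scale and missed the threshold, with adjusted p-values of 0.0523 to 0.103 in limma.

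Cd28, the main costimulatory receptor of T cells, differed by 0.07 in wild-type and -0.54 in jnk1-/- lungs on the log2 scale, each with an SE of 0.44. Icos, a costimulatory receptor of activated T cells, was chosen after its values were seen: its mean was 2.11 ± 2.40 in wild-type controls (SD, n = 3), with 2 of 3 arrays at the authors' floor, against 4.81 ± 0.40 in jnk1-/- controls (n = 3). Its difference between the controls was 2.70 with an SE of 0.88 and an adjusted p of 0.111 in limma. The lowest of these arrays was wild-type control replicate 2, the array with the most probes at the lowest deposited value.

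Gzmb was the member called higher. Its log2 levels were 3.85, 3.93 and 3.32 in wild-type controls and 4.67, 4.83, 4.87 and 4.66 in ventilated wild-type mice. In jnk1-/- mice they were 3.94, 3.96 and 4.42 in controls and 4.39, 4.40, 4.53 and 4.03 after ventilation. All ventilated wild-type arrays lay above all wild-type controls, and the jnk1-/- groups overlapped. Gzmb rose 2.08-fold in wild-type lungs (log2 1.06, SE 0.20, 95% interval 0.62 to 1.5, adjusted p = 0.0155, limma). Its difference in jnk1-/- lungs was 0.23 (SE 0.20), and the difference between the effects was -0.83 with an SE of 0.28 (adjusted p = 0.249, limma). Without wild-type control replicate 3, the lowest array, the rise was 0.87 with an adjusted p of 0.0715 in limma.

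None of the other 3 measured granule genes was called on ventilation. Prf1, perforin, which opens the target cell membrane, differed by -0.59 in wild-type and -1.46 in jnk1-/- lungs (SE 0.51 each), and 3 of 4 ventilated jnk1-/- arrays stood at the authors' floor. Nkg7, a granule membrane protein of cytotoxic cells, differed by -1.35 in wild-type and -3.17 in jnk1-/- lungs with SEs of 1.01. Its level was 6.21 ± 0.15 in jnk1-/- controls (SD, n = 3) and 3.04 ± 2.54 in ventilated jnk1-/- mice (n = 4), of which 2 arrays stood at the authors' floor. In the authors' own normalized table, Nkg7 was called lower in both genotypes, with log2 -1.74 in wild-type and -2.13 in jnk1-/- lungs (adjusted p = 0.0237 and 0.00455, limma). Gzmk, a further granzyme, was listed at the authors' floor in every ventilated mouse of both genotypes.

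The NK cell receptor genes had the lowest median difference of the 8 roles in jnk1-/- lungs, -2.01, and in wild-type lungs, -1.69. Klrd1 encodes CD94, which pairs with Nkg2 proteins to read the MHC class I molecules of other cells. Its log2 levels were 6.76, 6.10 and 6.01 in wild-type controls and 5.25, 3.92, 5.21 and 5.39 in ventilated wild-type mice. They were 6.82, 6.34 and 6.00 in jnk1-/- controls and 3.59, 4.13, 4.65 and 2.74 in ventilated jnk1-/- mice. The ventilated arrays lay below the control arrays in both genotypes, with 1 of 4 ventilated jnk1-/- arrays at the authors' floor. Klrd1 fell 6.11-fold in jnk1-/- lungs (log2 -2.61, SE 0.46, 95% interval -3.62 to -1.60, adjusted p = 0.00509, limma), and differed by -1.35 in wild-type lungs (SE 0.46, adjusted p = 0.13, limma). The call in jnk1-/- lungs held without each array in turn.

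Klrk1, which encodes the activating receptor Nkg2d for ligands of stressed cells, was called in both genotypes. Its log2 levels were 7.47, 7.59 and 7.23 in wild-type controls and 5.15, 4.68, 6.03 and 5.80 in ventilated wild-type mice. They were 6.40, 6.96 and 5.53 in jnk1-/- controls and 5.18, 5.54, 3.84 and 4.11 in ventilated jnk1-/- mice. The wild-type groups were apart, and in jnk1-/- mice 1 ventilated array lay above the lowest control by a small margin. Klrk1 fell 4.05-fold in wild-type lungs (log2 -2.02, SE 0.47, adjusted p = 0.0388, limma) and 3.09-fold in jnk1-/- lungs (log2 -1.63, SE 0.47, adjusted p = 0.0448, limma). The difference between the effects was 0.39 with an SE of 0.67 (adjusted p = 0.83, limma). In wild-type lungs the adjusted p rose above the threshold without any single array of the groups compared, between 0.0524 and 0.12 in limma. In jnk1-/- lungs it did so without control replicate 1 or 2 or ventilated replicate 1, 3 or 4, between 0.051 and 0.159, with log2 differences of -1.80 to -1.30.

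Ncr1 encodes Nkp46, an activating receptor that marks NK cells. Its log2 levels were 6.10, 4.45 and 5.25 in wild-type controls and 3.52, 3.48, 1.09 and 2.57 in ventilated wild-type mice. They were 4.88, 5.08 and 4.99 in jnk1-/- controls and 2.98, 3.60, 2.60 and 1.13 in ventilated jnk1-/- mice. No ventilated array reached a control array of its genotype, and the authors' table lists 4 of 4 ventilated wild-type and 3 of 4 ventilated jnk1-/- arrays at its floor. Ncr1 fell in jnk1-/- lungs (log2 -2.41, SE 0.66, adjusted p = 0.0356, limma), where the size rests on values at that floor and was -1.34 in the authors' own table. In wild-type lungs the difference was -2.60 with an SE of 0.66 (adjusted p = 0.0514, limma). In the authors' own table, where all ventilated wild-type arrays stand at the floor, it was -2.06 and was called lower (adjusted p = 0.000571, limma). The call in jnk1-/- lungs was lost without any 1 of the arrays compared other than ventilated replicate 2, with adjusted p-values of 0.0531 to 0.0968 in limma.

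Klrg1, an inhibitory receptor of differentiated NK and T cells, had means of 5.96 and 5.96 in control and ventilated wild-type lungs and of 6.34 and 6.12 in jnk1-/- lungs, with SEs of the difference of 0.22. Klrb1c, which encodes NK1.1, was 5.55 ± 0.66 and 3.86 ± 0.99 in wild-type lungs (SD, n = 3 and 4) and 4.17 ± 0.87 and 2.17 ± 1.89 in jnk1-/- lungs (n = 3 and 4). Its differences of -1.69 and -2.01 had SEs of 0.90 and did not pass. Thus 4 of the 5 NK cell receptor genes had differences below -1 in each genotype, and 3 of them passed in jnk1-/- and 1 in wild-type lungs.

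None of the 2 cytokine receptor and 3 transcription factor genes was called. Il2rb was 8.06 ± 0.04 and 8.58 ± 0.20 in wild-type lungs (SD, n = 3 and 4) and 8.63 ± 0.46 and 8.41 ± 0.19 in jnk1-/- lungs (n = 3 and 4). Il7r, the interleukin 7 receptor of naive and memory T cells, differed by -0.13 and -0.14. Lef1, a factor of naive T cells that other lung cells also use, differed by 0.84 in wild-type lungs (SE 0.22, adjusted p = 0.0549, limma) and by -0.09 in jnk1-/- lungs (SE 0.22). In the authors' own normalized table, Lef1 was called higher in wild-type lungs (log2 0.89, adjusted p = 0.0245, limma). Tbx21, which directs the type 1 programme of T and NK cells, differed by -0.47 and -0.59 with SEs of 0.24. Eomes, its relative, differed by 0.60 and 0.01, and its dimmer probe, at the authors' floor on 9 of 14 arrays, by -0.85 and -1.26, so the probes of Eomes disagreed.

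Of the 4 chemokine, cytokine and homing genes, Ccl5 fell in jnk1-/- lungs. Ccl5 is a chemokine made by T and NK cells that recruits further leukocytes. Its log2 levels were 9.88, 9.98 and 10.43 in jnk1-/- controls and 8.76, 9.33, 7.61 and 7.29 after ventilation, and in wild-type mice 9.97, 9.59 and 9.39 in controls and 9.63, 8.29, 9.59 and 9.17 after ventilation. The jnk1-/- groups did not overlap and the wild-type groups did. Ccl5 fell 3.6-fold in jnk1-/- lungs (log2 -1.85, SE 0.47, 95% interval -2.88 to -0.82, adjusted p = 0.027, limma) and differed by -0.48 in wild-type lungs (SE 0.47). The difference between the effects was -1.37 with an SE of 0.67 (adjusted p = 0.408, limma). The call was lost without any 1 of the jnk1-/- controls or without ventilated replicate 3 or 4, with differences of -1.96 to -1.53 and adjusted p-values of 0.0511 to 0.0828 in limma.

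Xcl1, a chemokine of activated NK and CD8 T cells, lay between 7.43 and 7.69 in the 4 groups and differed by 0.06 and 0.09 on ventilation. Ltb, lymphotoxin beta, made by T, B and NK cells, was 5.72 ± 0.10 and 3.62 ± 0.46 in wild-type lungs (SD, n = 3 and 4) and 6.06 ± 0.22 and 3.83 ± 1.76 in jnk1-/- lungs (n = 3 and 4). Its differences of -2.10 and -2.23 had SEs of 0.71 and adjusted p-values of 0.125 and 0.0635 in limma, and 2 of 4 ventilated arrays in each genotype stood at the authors' floor. In the authors' own normalized table, Ltb was called lower in wild-type lungs, with an adjusted p of 0.0182 in limma.

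**Figure D3:**
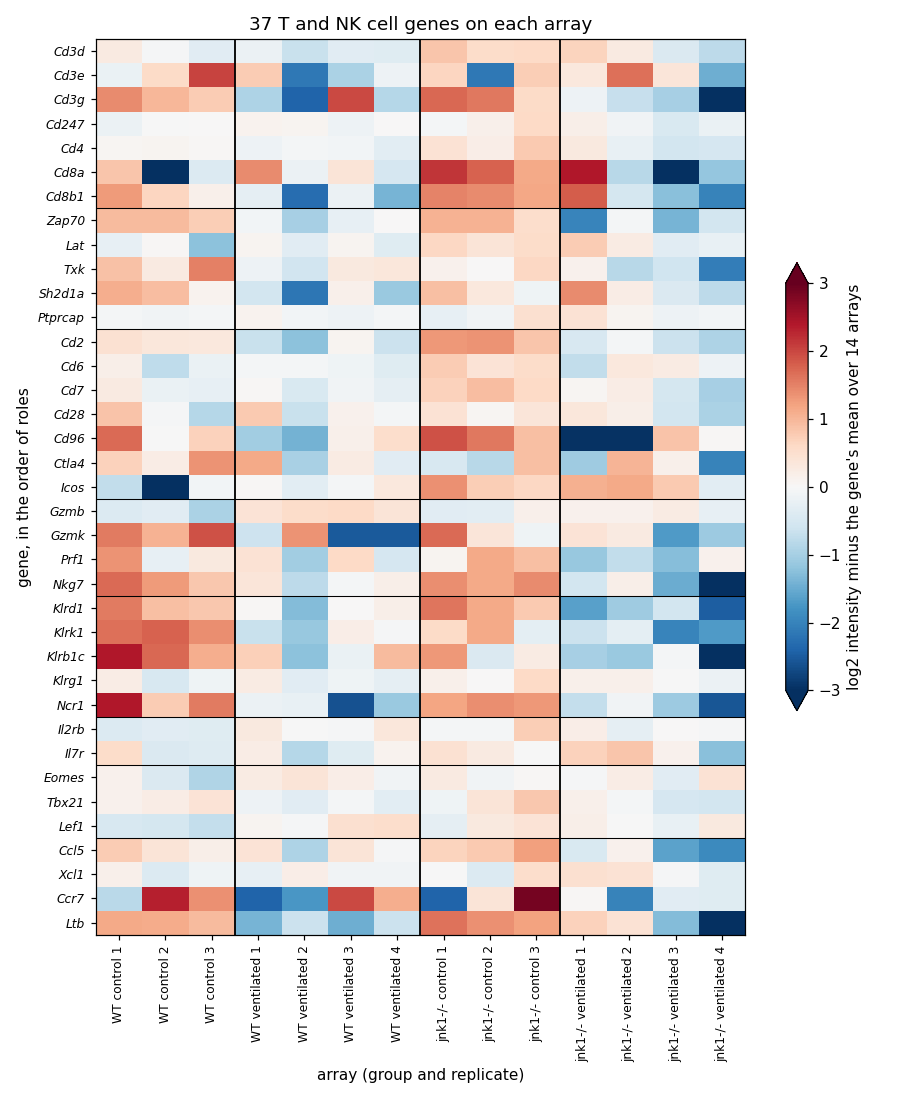
Log2 intensity of each of the 37 genes (y axis, in the order of roles) on each of the 14 arrays (x axis) minus the gene's mean over the arrays, with colours ending at 3 in either direction. The NK cell receptor genes Klrd1, Klrk1 and Ncr1 are higher on average on the control than on the ventilated arrays of each genotype, and jnk1-/- ventilated replicate 4 has the lowest value of Cd3g, Nkg7, Klrd1 and Ltb.

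Between the genotypes in controls, 0 of 37 genes passed the threshold in limma, against 2.08% of all probes called higher and 2.13% called lower in jnk1-/- controls. At an unadjusted p under 0.05, for which no share of all probes was counted, 7 genes were higher and 1 was lower. Without overlap, 12 genes were higher on all jnk1-/- control arrays, against 14.4% of all probes, and 1, Klrk1, was lower, against 12.5%. The 12 were Cd3d, Cd4, Cd8a, Lat, Cd2, Cd6, Cd7, Icos, Gzmb, Il2rb, Lef1 and Ltb. Their differences ranged in the fitted values from 0.33 for Ltb to 2.71 for Cd8a, and for the latter 2 of 3 wild-type controls stood at the floor of the authors' table. The median difference of the 37 genes was 0.30, beside 0.11 over all probes. The jnk1-/- control arrays are those with the muscle and squamous markers and with the higher summed signal of thymus markers.

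After ventilation, 0 of 37 genes passed in limma, against 0.245% of all probes called higher and 0.285% called lower in jnk1-/- mice, and at an unadjusted p under 0.05 there were 0 higher and 2 lower, Klrd1 and Gzmb. Klrd1 was 1.16 lower in ventilated jnk1-/- than in ventilated wild-type mice (log2, SE 0.43, adjusted p = 0.364, limma). Gzmb was lower on all ventilated jnk1-/- arrays than on all ventilated wild-type arrays, by 0.42 on the log2 scale (SE 0.19, adjusted p = 0.475, limma). The difference of the ventilation effect between the genotypes called 0 of 37 in limma, against 0.183% of all probes higher and 0.199% lower, and 0 higher and 4 lower at an unadjusted p under 0.05, namely Lef1, Gzmb, Il2rb and Cd7. No share of all probes was counted at the unadjusted threshold. The wild-type and jnk1-/- control groups enter both the genotype comparison in controls and the difference of the effects.

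The other genes of these cells were read from further lists. The shares of all probes called on ventilation, 2.16% higher and 1.45% lower in wild-type and 6.3% higher and 5.51% lower in jnk1-/- lungs, are the background of the counts in each list, and a count of 1 or 2 of about 20 genes lies near it. Of 22 further NK cell and cytotoxic genes, 1 rose and 1 fell in wild-type lungs and 2 rose and 3 fell in jnk1-/- lungs. Klra4, an NK cell receptor of the Ly49 family, fell in both genotypes, by 1.59 and by 2.31 on the log2 scale (adjusted p = 0.0301 and 0.00224, limma), and Cd160 and Klrb1a, both NK cell receptors, fell in jnk1-/- lungs by 1.81 and by 3.28. Srgn, the granule proteoglycan serglycin, which myeloid cells also make, rose in both, by 0.93 and 1.28. The other gene of this list that rose in jnk1-/- lungs is not named here. The median level of this list lay at 5.59 to 5.70 in wild-type controls and at 4.20 to 4.75 after ventilation, and at 5.02 to 5.14 and 3.25 to 4.64 in jnk1-/- mice. The median difference of its genes was far smaller, -0.10 in wild-type and -0.23 in jnk1-/- lungs. A median level can rest on different genes from array to array, so its drop is not a shift of the whole list. The summed signal of the same list went the other way, with log2 sums of 12.7 to 12.8 and 13.1 to 13.8 in wild-type mice and of 12.6 to 12.9 and 13.4 to 13.9 in jnk1-/- mice.

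Of 19 further genes of T cell receptor signalling, 0 were called in wild-type lungs and 1 rose in jnk1-/- lungs, Cblb, a ubiquitin ligase that restrains the receptor, by 1.29. Of 24 genes of T cell activation and differentiation, Dpp4 (CD26) fell in both genotypes, by 1.77 and by 1.56, Slamf6 rose in wild-type lungs by 1.21, and Lag3 and Gata3 fell in jnk1-/- lungs by 0.98 and by 0.86. Of 18 homing and chemokine receptor genes, Klf2, a factor that keeps T cells in circulation and is also strong in endothelium, fell in jnk1-/- lungs by 1.54. Of 20 ligands and cytokines for these cells, Cxcl16 rose in wild-type lungs by 0.69, and 4 fell in jnk1-/- lungs, including Cxcl9, a chemokine for activated T cells, by 4.23 and the cytokine genes Il4 by 3.13 and Il12a by 0.87.

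In the genotype comparison of controls, these lists gave Slamf6 and the integrin gene Itgal higher, by 1.38 and 1.11, and Ccl19, a chemokine for naive T cells, lower by 2.34 in jnk1-/- controls. Ccl19 was also lower in jnk1-/- than in wild-type mice after ventilation, by 3.05 on the log2 scale (SE 0.36, adjusted p = 0.00154, limma), the only gene of these 5 lists called between the ventilated groups. The median differences of the 5 lists on ventilation were -0.10 and -0.23 for NK and cytotoxic genes, -0.26 and 0.06 for receptor signalling, 0.02 and -0.24 for activation, 0.51 and -0.48 for homing, and 0.06 and -0.33 for ligands, in wild-type and jnk1-/- lungs, respectively.

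**Figure D4:**
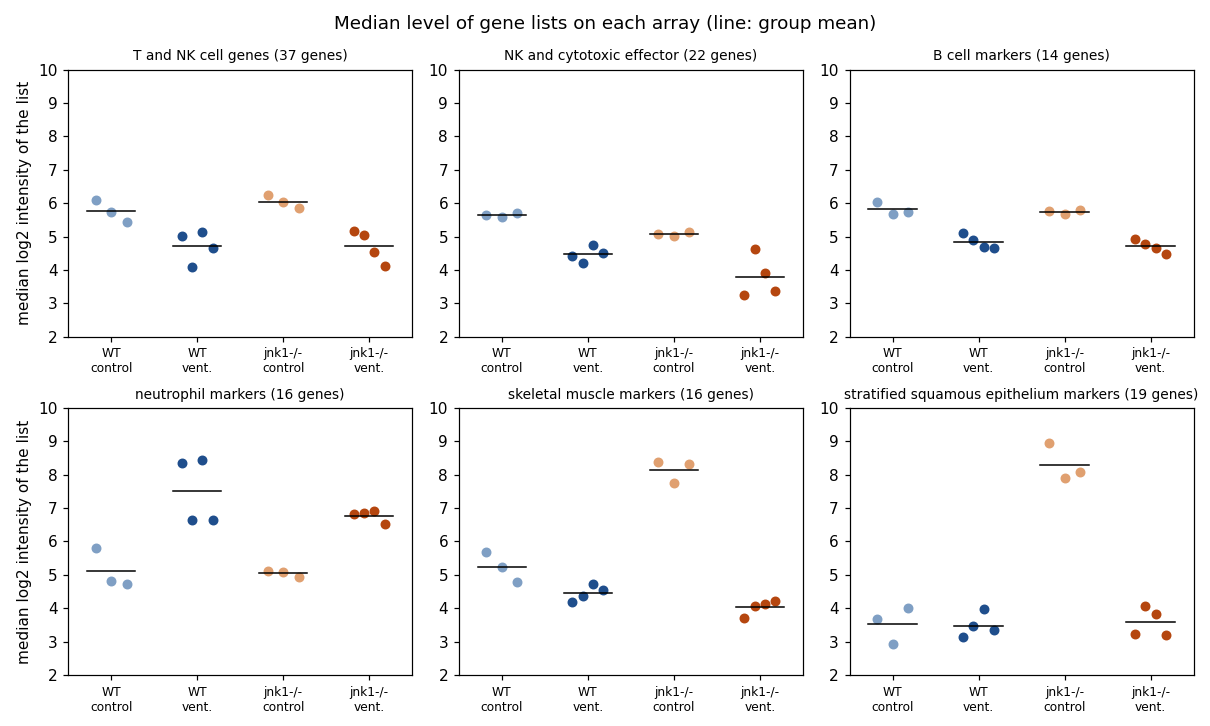
Median log2 intensity of 6 gene lists (y axis) on each array (points), by group (x axis), with the group mean as a line. The medians of T and NK cell genes and of B cell markers are lower on every ventilated than on every control array of the same genotype, those of neutrophil markers are higher, and muscle and squamous markers stand high in jnk1-/- controls.

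The median level of the 37 T and NK cell genes was 5.44 to 6.10 on wild-type control arrays and 4.10 to 5.13 on ventilated ones, and 5.86 to 6.24 and 4.11 to 5.18 in jnk1-/- mice. The median difference of these genes was smaller than this drop, -0.48 in wild-type and -0.74 in jnk1-/- lungs. On the scale of summed signal, their log2 sum was 11.6 to 12.0 and 11.1 to 11.6 in wild-type mice, and 12.2 to 12.3 and 10.8 to 11.7 in jnk1-/- mice. Of the 37 genes, those above the authors' floor on every array of a group numbered 30 and 22 in control and ventilated wild-type mice and 32 and 22 in jnk1-/- mice. Control groups hold 3 arrays and ventilated groups 4, so this criterion is stricter after ventilation, and these counts do not measure a change. The share over all probes was not counted.

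On ventilation, the median level of B cell markers fell with these levels and that of neutrophil markers rose. Of 14 B cell markers, 4 fell in wild-type lungs and 5 in jnk1-/- lungs, among them Cd79b and Ms4a1, and the list's median level went from 5.67 to 6.04 in wild-type controls to 4.67 to 5.10 after ventilation and from 5.68 to 5.80 to 4.47 to 4.93 in jnk1-/- mice. Of 16 neutrophil markers, 8 rose in wild-type and 7 rose and 1 fell in jnk1-/- lungs, with median levels of 4.73 to 5.82 and 6.64 to 8.45 in wild-type mice and of 4.93 to 5.11 and 6.51 to 6.92 in jnk1-/- mice. Mmp8, the neutrophil collagenase, rose by 5.30 and 5.39. The list of 15 glucocorticoid-induced genes, such as Mt2 and Map3k6, rose in 11 and 10 of its members and shares Il1r2 with the neutrophil list. Of 14 macrophage and monocyte markers, Cd14 rose in both genotypes and Ctsk fell in jnk1-/- lungs, and 0 of 9 platelet and 0 of 4 erythrocyte markers were called on ventilation. The part of these cells in the falls of T and NK cell genes was not tested.

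Muscle and squamous markers fell on ventilation in jnk1-/- lungs, 13 of 16 and 14 of 19, to median levels of 3.71 to 4.21 and 3.20 to 4.06. In wild-type lungs, 1 of 16 muscle markers fell, and of the squamous markers 1 rose and 1 fell. Of 11 thymus markers, 0 were called in wild-type lungs, and in jnk1-/- lungs Ccl25 rose and Arpp21 fell. The falls of Cd2, Cd7, Zap70, Klrd1, Klrk1, Ncr1 and Ccl5 in jnk1-/- lungs therefore come from a comparison in which the control arrays carry these other tissues. Between the ventilated groups, whose muscle and squamous medians overlap, none of these 7 genes differed past the threshold. A p that misses the threshold does not show that the genotypes are alike, and the 95% interval of the Cd2 difference of the effects reached from -1.59 to 0.19.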

How the data were processed

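Total lung RNA was labelled with Cy5 and hybridized to CodeLink 20K arrays. For 19621 probes the authors deposited the log2 intensity on each array, not normalized between arrays, and a log2 table that they normalized by cyclic loess, with a floor at 3.12. Quality flags are absent from these values, and the filter on them was left out. The array values were normalized here by cyclic loess on every pair of arrays (R 4.3.3), with values at the lowest value, -6.86, left out of the curves and values under the 1st percentile of the rest set to it (-0.63). Above the floor they correlated with the authors' table at 0.99 or more.

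Group means of the 4 groups were fitted in limma 3.58.1 (lmFit, eBayes) over all 14 arrays, with 5 contrasts. P-values were adjusted by Benjamini-Hochberg over all probes. The scripts were tested on simulated data. Probes were named by the platform annotation, which gives 15353 probes 1 gene, 91 several and 4177 none, and each gene was read from its brightest probe over all arrays. Genes past the threshold are given with every array, the others by ranges and up to 3 per role, brightest first, and other lists by up to 3 genes of lowest adjusted p. The members and lists were chosen with earlier results of these data known. Same-numbered arrays did not deviate together (correlations -0.05 to 0.08), so numbers were not taken as pairs. The labels do not state that arrays come from separate animals, whereas the methods do. The number of arrays limits the precision. Alternatives were other normalizations, the authors' table, Welch's test of the methods, filters, floors, weights and arrays left out. Motifs were counted in RefSeq windows, and Python 3.11.15 with matplotlib 3.10.9 drew the figures.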

Additional observations from a re-analysis of the deposited data

Results flagged for a closer look

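Klrd1 on wild-type ventilated replicate 2, at a log2 level of 3.918, lay far below the other 3 ventilated wild-type arrays, at 5.21 to 5.39, with a gap of 0.879 of the range of the group. Among 74 such groups of 4 arrays it was the only one. Chance gives about 1 per 20 groups, so 1 in 74 is below the share that chance gives. The median level of the 37 T and NK cell genes on this array, 4.10, was also the lowest of the 4, the highest being 5.13. Without this array, Gzmb was called higher (log2 1.04) and Gzmk lower (log2 -3.39) in wild-type lungs, and Klrk1 was not called. The authors' table lists Gzmk at its floor on every ventilated wild-type array.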

How the results depend on the processing

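Over the alternatives run, none of the 9 calls on ventilation reversed its direction, and the median differences moved by less than the spread between arrays (SD 0.41). That spread is one of single arrays and is larger than the medians between the genotypes, 0.30 in controls and -0.12 after ventilation. Those medians could vanish and still lie within it, so it is a wide margin that does not show them to be stable. The medians ranged from -0.67 to -0.21 in wild-type and from -0.98 to -0.53 in jnk1-/- ventilation. Between the genotypes they ranged from 0.04 to 0.43 in controls and from -0.25 to -0.01 after ventilation. The counts of called genes depended on the settings. Except for Welch's test, the share of all probes called was not counted in the alternatives, so their counts have no background beside them. With the adjusted p, Welch's test called 5 of all probes in wild-type ventilation and 24 in jnk1-/- ventilation. With the authors' values, 2 genes were called higher and 6 lower in wild-type lungs, and 0 higher and 9 lower in jnk1-/- lungs. In wild-type lungs the count of 2 became 1 with quantile normalization, 8 with the authors' values, 0 with the methods' Welch test, 5 without dim probes, 6 with array weights, 0 with close array pairs averaged and 0 without both wild-type controls 2 and 3 (chosen after seeing the data). It ranged from 0 to 2 with each array left out, being 0 without control replicate 3 and 1 without control replicate 1 or 2 or ventilated replicate 1 or 4. In jnk1-/- lungs the count of 7 became 0 with Welch's test, 2 with these groups alone, 12 without dim probes, 13 with array weights and 2 with close pairs averaged. It ranged from 2 to 9 with each array left out, being 2 without control replicate 1 or 2 and 4 without control replicate 3 or ventilated replicate 3 or 4. In controls the count of 0 became 1 with a floor at the 5th percentile and 4 with array weights, and the other comparisons gave 0 in every setting. With the replicate block the counts were 0 in wild-type and 3 in jnk1-/- lungs, although the numbers do not pair the arrays. Cd2 and Klrd1 kept their call in 17 of 18 settings, losing it with Welch's test. Fewer probes tested, or a different weight of arrays, changes the adjustment; other causes were not tested. Welch's test called 15, 10, 3 and 1 genes at an unadjusted p under 0.05 in wild-type ventilation, jnk1-/- ventilation, controls and after ventilation. The share of all probes was not counted there. Dim probes limit Ncr1, Cd3e, Ctla4, Gzmk, Ccr7 and Cd96, whose low values cannot be ordered.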
